A study of Mus musculus with 17 samples.

Results

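The 10 early B-cell genes described here are Igll1, Vpreb1, Vpreb3, Rag1, Rag2, Dntt, Ebf1, Pax5, Cd79a and Cd79b. They were chosen by name, and every probe set whose single gene symbol in the array's annotation is one of them was taken, which gave 18 of 45101 probe sets. Of these, 17 passed the filter on dim signal, at least 1 for each gene, among 14245 genes tested in all. The remaining probe set, 1457441_at for Ebf1, lay between 0.0423 and 0.360 in deposited log10 signal on the 17 arrays and is given by value only.

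Sorted mouse bone marrow cells of 5 groups were measured, and the sort separated cells without staining for the antigens CD24, CD48 and Gr-1 (GPI-negative) from stained cells (GPI-positive). These antigens are held in the membrane by a lipid tail, glycosylphosphatidylinositol (GPI), whose first building step needs Piga. In batch 1, GPI-negative cells of Pig-a knock-out mice (3 arrays) were set against GPI-positive cells of Pig-a knock-out mice (3 arrays), so both groups carry the knock-out label. Batch 2 held 3 groups. The knock-out graft cells (4 arrays) were GPI-negative and came from C57BL/6 mice given marrow that had been enriched for GPI deficiency from Pig-a knock-out donors. The wild-type graft cells (3 arrays) were GPI-positive and came from C57BL/6 mice given wild-type marrow, and the untransplanted wild-type cells (4 arrays) were GPI-positive and came from C57BL/6 mice without a graft. Per the labels' protocols, the knock-out donor marrow was held in 10 nM aerolysin, a toxin that lyses GPI-normal cells, for 30 minutes, and its recipients had received 9 Gy of whole-body irradiation. The protocols do not state either step for mice given wild-type marrow, so graft treatment, donor genotype and GPI status cannot be told apart between the 2 graft groups. The labels name neither the promoter nor the cell type of the Pig-a deletion, nor ages. Arrays are called biological replicates and no animals are named, so a p-value here rests on array-to-array spread, part of which may be technical.

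B cells are made in the marrow in steps. The transcription factor Ebf1 and then Pax5 commit a lymphoid progenitor to the lineage. The Rag1 and Rag2 proteins cut the antigen receptor loci, and Dntt adds bases at the joins. In a cell that has made a heavy chain but no light chain, Vpreb1 and Igll1 together form a surrogate light chain, and the resulting pre-B-cell receptor signals through Cd79a and Cd79b, which stay on in mature B cells. CD24, an antigen of the sort, is itself carried by developing B cells.

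Facts of the whole table that touch these values are few. Piga, the targeted gene, gave 0.579 to 0.660 in knock-out GPI-negative cells against 1.15 to 1.32 in knock-out GPI-positive cells on probe set 1427305_at. It gave 0.0388 to 0.231 in knock-out graft cells, 1.16 to 1.23 in wild-type graft cells and 1.18 to 1.25 in untransplanted wild-type cells. The gaps were narrower on Piga probe set 1453497_a_at, with 0.322 to 0.559 in knock-out GPI-negative and 0.717 to 0.862 in knock-out GPI-positive cells. There, knock-out graft cells gave 0.160 to 0.447, wild-type graft cells 0.4625 to 0.586 and untransplanted wild-type cells 0.533 to 0.637. The 3 knock-out GPI-positive arrays lay close together, with a median SD over genes of 0.0955 log2 against 0.153 to 0.199 in the other groups. The difference between the 3' and 5' Gapdh controls, a sign of RNA quality, was -0.16 ± 0.13 log2 in knock-out GPI-negative and -1.02 ± 0.017 in knock-out GPI-positive samples (SD, n = 3 each). It was -0.68 ± 0.30 in knock-out graft cells, -0.63 ± 0.22 in wild-type graft cells and -0.93 ± 0.054 in untransplanted wild-type cells. Its part in the results was not tested. Signal is given on the deposited log10 scale, which was normalized separately in each batch, so levels are compared only within a batch.

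In knock-out marrow, early B-cell genes were higher in GPI-negative than in GPI-positive cells. In limma's fit 7 of the 10 passed (adjusted p under 0.05), all higher, where 29.5% of all 14245 genes tested passed, 14.8% higher and 14.8% lower. On the brightest probe set of each gene, the surrogate light chain genes Igll1 and Vpreb1 differed 3.59-fold and 3.33-fold and Dntt 2.64-fold, while Cd79b, Rag1, Cd79a and Ebf1 lay between 1.82-fold and 1.40-fold. Other probe sets give another order, with 3.48-fold for Dntt, 2.59-fold for Ebf1 and 1.07-fold for Igll1. The median over the 10 genes was 0.80 on the log2 scale, against -0.01 over all genes. The 2 groups of arrays did not overlap for 8 of the 10 genes, as for 43.2% of all genes. When the 3 closely similar knock-out GPI-positive arrays were averaged into 1 sample, whose spread is then assumed to be that of the other groups, 3 of the 10 genes passed, Igll1, Vpreb1 and Rag1. Over all genes, calls also became fewer under this averaging. In sorted bulk cells, a change in the number of B-lineage cells and a change in RNA per cell cannot be told apart.

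**Figure D1:**
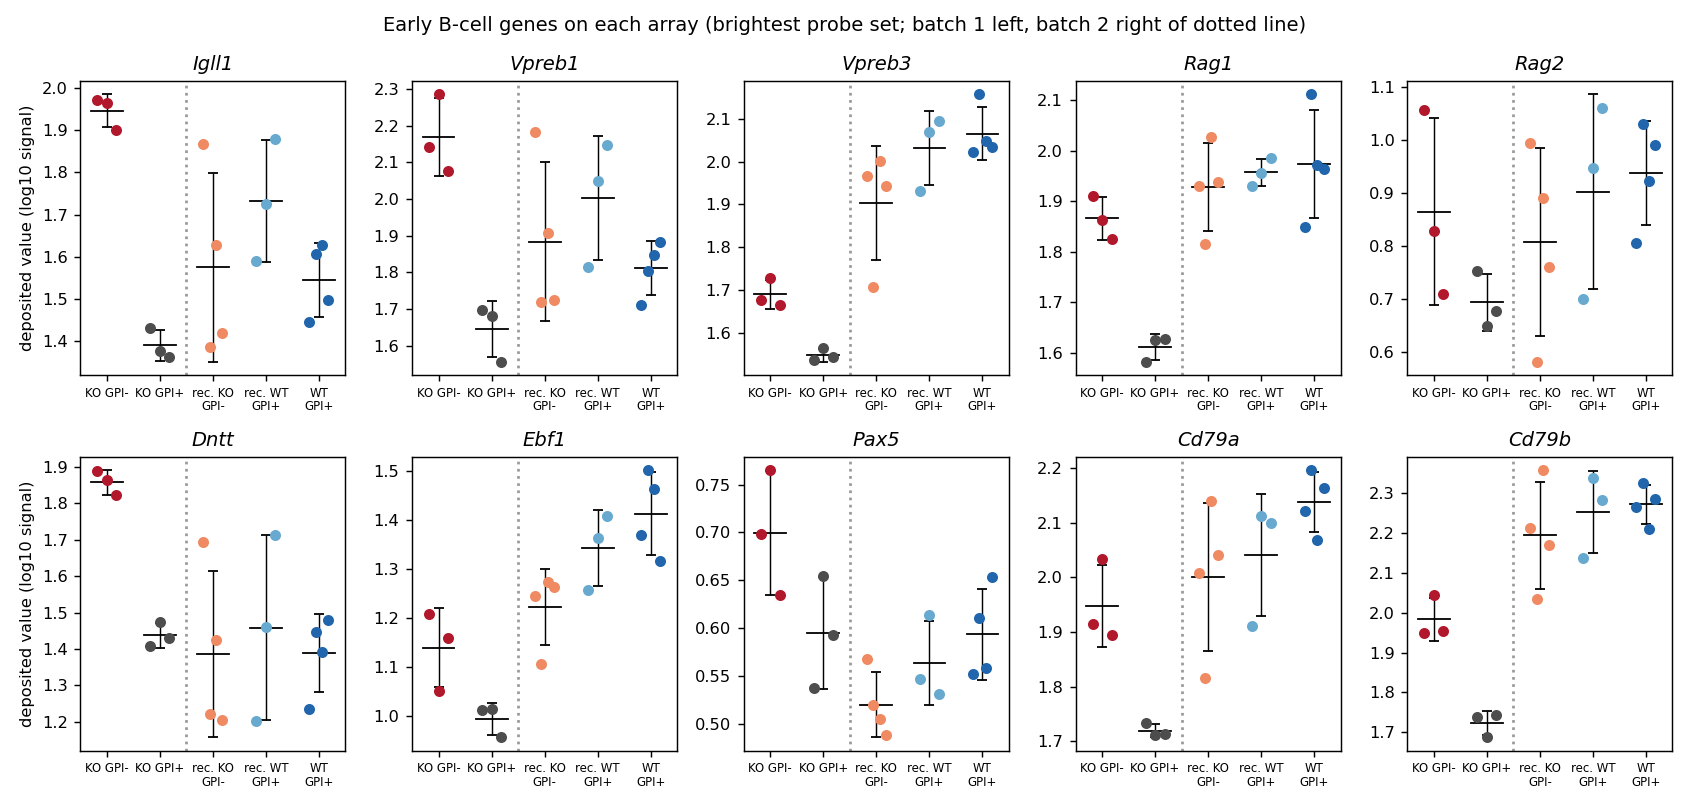
Deposited log10 signal of the brightest probe set of each gene on each of the 17 arrays (points), with the group mean and SD (bars); KO, knock-out; rec. KO and rec. WT, knock-out and wild-type graft cells; GPI- and GPI+, the sorted fractions. Igll1, for example, lies between 1.90 and 1.97 in knock-out GPI-negative cells and between 1.36 and 1.43 in knock-out GPI-positive cells, while the batch 2 groups overlap.

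Among the surrogate light chain genes, Igll1, the lambda5 chain, read 1.97, 1.97 and 1.90 in knock-out GPI-negative cells against 1.43, 1.38 and 1.36 in knock-out GPI-positive cells on probe set 1420176_x_at. All GPI-negative arrays were above all GPI-positive arrays, and the log2 difference was 1.85 ± 0.29 (SE, adjusted p = 5.5e-05). The second Igll1 probe set, 1420177_at, was dim, with group means between percentiles 32.1 and 47.9 of all probe sets, and its knock-out difference was 0.09 ± 0.22 (adjusted p = 0.80, adjusted over all probe sets). Vpreb1, which supplies the variable-like part of the surrogate light chain, read 2.14, 2.29 and 2.08 in knock-out GPI-negative cells against 1.70, 1.68 and 1.56 in knock-out GPI-positive cells. These values do not overlap either, and the log2 difference was 1.74 ± 0.31 (adjusted p = 2e-04). A further probe set, 1422416_s_at, carries the symbols of both Vpreb1 and its near copy Vpreb2 and so is no member. It differed by 1.37 on the log2 scale (adjusted p = 0.002 over all probe sets), and signal of the 2 genes on it cannot be separated. Vpreb3, a protein of the same family that binds free immunoglobulin light chains inside B cells, read 1.68, 1.73 and 1.67 in knock-out GPI-negative cells against 1.54, 1.56 and 1.54 in knock-out GPI-positive cells. Although the groups were separate, its difference of 0.47 ± 0.19 missed the threshold (adjusted p = 0.068); it passed in a fit of batch 1 alone (adjusted p = 0.0059).

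Igll1 and Vpreb1 lie side by side on mouse chromosome 16 with no annotated gene start between them. For each gene called in knock-out marrow that has an entry, the 250 bases before its annotated start are printed, for Ebf1 before both starts, to show what these genes share in sequence. They are from RefSeq, build GRCm38.p6, read on the gene's strand. Promoters of 9 of the 10 genes were in the table, Cd79b being the exception. Capitals mark every match on either strand to 4 short motifs: CCCNNGGG, the palindrome bound by Ebf1; AAGGGA, a shorter site it also binds; CAGGTG, an E-box of the kind bound by E proteins such as Tcf3; and TGTGGT, bound by Runx factors. No matches overlapped in these sequences.
Igll1, chr16:16863986-16864235, minus strand: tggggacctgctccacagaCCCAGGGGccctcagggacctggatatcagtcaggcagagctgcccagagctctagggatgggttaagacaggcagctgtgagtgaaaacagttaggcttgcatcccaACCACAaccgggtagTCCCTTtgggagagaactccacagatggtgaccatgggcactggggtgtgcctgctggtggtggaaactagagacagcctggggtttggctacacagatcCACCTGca
Vpreb1, chr16:16869256-16869505, minus strand: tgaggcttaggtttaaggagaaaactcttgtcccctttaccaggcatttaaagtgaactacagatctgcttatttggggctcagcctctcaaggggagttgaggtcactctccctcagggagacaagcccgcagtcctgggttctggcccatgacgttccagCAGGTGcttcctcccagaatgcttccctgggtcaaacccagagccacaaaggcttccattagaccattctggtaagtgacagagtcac
Dntt, chr19:41029025-41029274, plus strand: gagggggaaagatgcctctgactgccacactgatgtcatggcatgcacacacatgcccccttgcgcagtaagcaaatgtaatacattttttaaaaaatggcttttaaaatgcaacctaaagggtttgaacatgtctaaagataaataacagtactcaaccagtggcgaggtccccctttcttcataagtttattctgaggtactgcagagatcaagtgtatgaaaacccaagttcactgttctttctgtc
Rag1, chr2:101649533-101649782, minus strand: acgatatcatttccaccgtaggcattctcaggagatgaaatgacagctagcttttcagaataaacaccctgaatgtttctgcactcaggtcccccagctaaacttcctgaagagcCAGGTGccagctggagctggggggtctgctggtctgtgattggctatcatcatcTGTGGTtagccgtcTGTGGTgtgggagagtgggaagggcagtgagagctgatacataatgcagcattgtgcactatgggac
Cd79a, chr7:24897247-24897496, plus strand: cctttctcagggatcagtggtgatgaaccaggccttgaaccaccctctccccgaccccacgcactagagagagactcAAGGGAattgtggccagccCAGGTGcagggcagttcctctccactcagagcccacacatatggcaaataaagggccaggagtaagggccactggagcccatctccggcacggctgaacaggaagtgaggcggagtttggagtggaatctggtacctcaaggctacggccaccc
Ebf1, chr11:44617850-44618099, plus strand: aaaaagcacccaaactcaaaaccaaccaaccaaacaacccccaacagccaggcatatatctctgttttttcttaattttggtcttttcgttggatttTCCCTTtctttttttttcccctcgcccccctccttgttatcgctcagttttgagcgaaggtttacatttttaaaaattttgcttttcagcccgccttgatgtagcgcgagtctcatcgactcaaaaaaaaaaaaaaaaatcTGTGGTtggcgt
Ebf1, other annotated start, chr11:44619978-44620227, plus strand: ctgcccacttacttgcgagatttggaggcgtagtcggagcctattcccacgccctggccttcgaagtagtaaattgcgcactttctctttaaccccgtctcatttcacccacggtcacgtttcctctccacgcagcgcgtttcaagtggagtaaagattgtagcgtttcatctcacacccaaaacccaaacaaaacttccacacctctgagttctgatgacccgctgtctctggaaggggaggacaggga
The E-box occurred in 4 of the 9 genes, Igll1, Vpreb1, Rag1 and Cd79a, and in 17.2% of all 32851 promoters of this length. The Runx motif occurred in Igll1, Rag1, Vpreb3 and Ebf1 and in 14.0% of all promoters, AAGGGA in Igll1, Ebf1 and Cd79a and in 19.5%, and the palindrome in Igll1 and in 11.8%. Rag2, Dntt and Pax5 held no match in this window. A match is a stretch of letters and not a measured site.

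Of the recombination genes, Rag1 read 1.91, 1.86 and 1.83 in knock-out GPI-negative cells against 1.58, 1.63 and 1.63 in knock-out GPI-positive cells. The groups were separate, with a log2 difference of 0.85 ± 0.17 (adjusted p = 0.00071). Rag2, which neighbours Rag1 on chromosome 2 and encodes its partner, was scattered, at 1.06, 0.8294 and 0.709 in GPI-negative cells against 0.754, 0.650 and 0.677 in GPI-positive cells. Those groups overlap, and the difference of 0.57 ± 0.32 did not pass (adjusted p = 0.20). Dntt, terminal deoxynucleotidyl transferase, read 1.89, 1.86 and 1.82 in GPI-negative cells against 1.41, 1.47 and 1.43 in GPI-positive cells, a log2 difference of 1.40 ± 0.35 (adjusted p = 0.0045). Its other probe sets passed as well, where 12% of all probe sets were higher, 1449757_x_at by 1.80 ± 0.26 and 1420166_at by 0.59 ± 0.19 (adjusted p = 2.4e-05 and 0.028 over all probe sets).

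For the lineage factor Ebf1 the size of the difference depended on the probe set. Ebf1 read 1.21, 1.05 and 1.16 in knock-out GPI-negative cells against 1.01, 1.01 and 0.956 in knock-out GPI-positive cells on its brightest probe set, 1448293_at. The groups did not overlap, by a small margin, and the difference of 0.48 ± 0.18 passed narrowly (adjusted p = 0.044 over genes, 0.051 over all probe sets). Without GPI-negative replicate 1 or 3 it no longer passed (adjusted p = 0.17 and 0.11). Probe set 1416301_a_at read 1.27, 1.40 and 1.41 in GPI-negative cells against 0.948, 0.990 and 0.907 in GPI-positive cells, a larger difference of 1.37 ± 0.18 (adjusted p = 5e-06 over all probe sets). The other kept Ebf1 probe sets, 1439789_at and 1416302_at, rose by 0.64 ± 0.22 and 0.58 ± 0.17 (adjusted p = 0.037 and 0.013), so the direction was shared by 4 of 4 kept probe sets and the size was not. Pax5 was dim, with group means between percentiles 56.5 and 64.9 on its brighter probe set. It read 0.699, 0.765 and 0.635 in GPI-negative cells against 0.537, 0.655 and 0.593 in GPI-positive cells, and the overlapping groups differed by 0.35 ± 0.14 (adjusted p = 0.075). Without GPI-negative replicate 3 or GPI-positive replicate 2 this difference passed (adjusted p = 0.033 and 0.046).

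Both signalling chains of the B-cell receptor were higher. Cd79a read 1.91, 2.03 and 1.89 in knock-out GPI-negative cells against 1.73, 1.71 and 1.71 in knock-out GPI-positive cells, a log2 difference of 0.76 ± 0.21 (adjusted p = 0.0085). Cd79b read 1.95, 2.04 and 1.96 in GPI-negative cells against 1.74, 1.69 and 1.74 in GPI-positive cells, a difference of 0.86 ± 0.20 (adjusted p = 0.0020). For each gene the lowest GPI-negative array was above the highest GPI-positive array. For use with batch 2, a mean was taken over the 3 genes of largest knock-out difference, chosen after the values were seen, so its difference between the knock-out fractions follows from the choice. The mean log2 signal of Igll1, Vpreb1 and Dntt minus that of Cd79a and Cd79b was 0.08 ± 0.12 in GPI-negative and -0.77 ± 0.15 in GPI-positive cells (SD, n = 3 each), with ranges of -0.003 to 0.226 and -0.925 to -0.630.

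**Figure D2:**
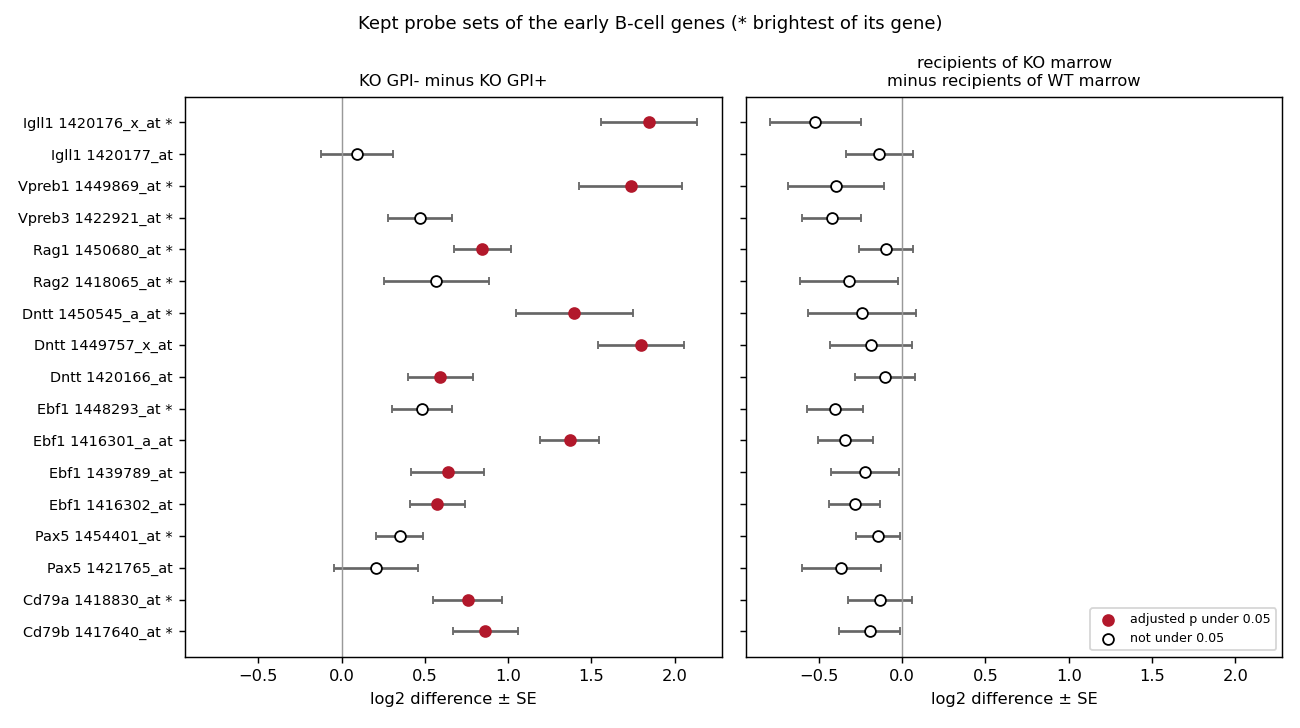
Log2 difference ± SE of each of the 17 kept probe sets in knock-out marrow (left) and between the graft groups (right), from limma's fit over all probe sets. Filled points passed an adjusted p of 0.05; the 4 Ebf1 probe sets lie between 0.48 and 1.37 in knock-out marrow, and no probe set of these genes passed between the graft groups, where 4.1% of all probe sets did.

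Genes that work with these 10 were partly higher in the same cells. Over all 14245 genes tested, 14.8% were higher and 14.8% lower in knock-out marrow. Of 18 listed transcription regulators of the B lineage 13 were higher, Id2 and Id3 among them, and 2 were lower. Foxo1, which activates Rag1 in developing B cells, rose by 1.57 ± 0.13 (adjusted p = 6.8e-09), Ikzf3 by 1.41 ± 0.12, Lef1, shared with T cells, by 2.30 ± 0.18 and Irf8 by 1.31 ± 0.13, while Spi1 and Runx1 fell. Of 13 tested genes of pre-B-cell receptor signalling 6 were higher and Plcg2 was lower by 0.42 (-0.42 ± 0.11). Blnk, the adaptor downstream of the pre-B-cell receptor, rose by 1.24 ± 0.20 (adjusted p = 7.4e-05), Cd72 by 0.93 ± 0.20 and Pik3cd by 0.87 ± 0.13, and Fyn, a kinase that T cells use, by 2.60 ± 0.14, while Cd22, an inhibitory receptor of B cells, passed narrowly at 0.46 ± 0.17. Of 10 tested genes that join V(D)J breaks 4 were higher, Atm by 0.97 ± 0.13, Xrcc6 by 0.86 ± 0.20, Prkdc by 0.57 ± 0.12 and Xrcc5 by 0.51 ± 0.16, and Hmgb2 was lower. Of 10 tested genes of the interleukin 7 and lymphoid progenitor receptors 4 were higher and Cxcr4 lower. Il7r, the receptor chain that early B and T cells need, rose by 2.66 ± 0.20 (adjusted p = 2.9e-09) and Flt3 by 0.90 ± 0.20. Of 11 tested markers of mature B cells 3 were higher, H2-Ob, Cxcr5 and Fcrla, and Cd40 was lower. Of 8 plasma cell markers 5 were lower, with Jchain falling by 3.04 ± 0.36, and Prdm1 was higher. The lists and the whole table stand side by side in the plot of gene lists.

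Markers of some other cells also differed in knock-out marrow, in both directions, and some of those cells can also express Rag1, Rag2 and Dntt. Of all genes tested, 14.8% were higher and 14.8% lower. All 12 T-cell markers were higher, and their mean log2 signal ranged from 5.25 to 5.35 on GPI-negative arrays against 1.61 to 1.76 on GPI-positive arrays, where 4 of the 12 lay above the 60th percentile of all probe sets. Of 8 tested plasmacytoid dendritic cell markers 7 were higher, with means of 4.26 to 4.42 on GPI-negative against 2.51 to 2.63 on GPI-positive arrays. Of 11 tested neutrophil markers 8 were lower, with means of 8.80 to 8.93 on GPI-negative against 9.85 to 9.90 on GPI-positive arrays. Erythroid markers were called in 0 of 9 cases, and 7 of 13 tested cell cycle genes were lower. Ranked among all probe sets, the dimmest T-cell marker was at percentile 73.1 in GPI-negative cells and 26.3 in GPI-positive cells. The part of these markers in the early B-cell differences was not tested.

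**Figure D3:**
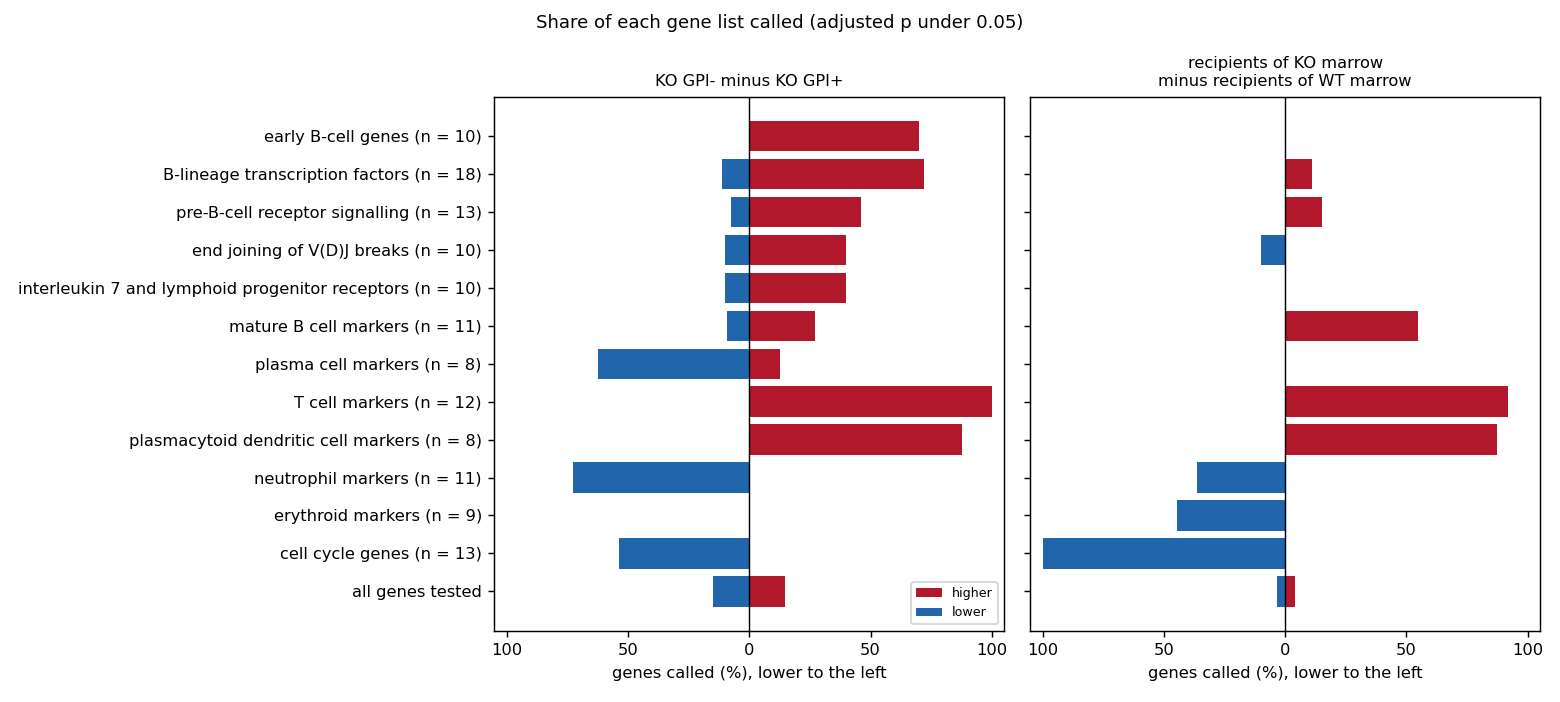
Share of each gene list called higher (right of 0) or lower (left of 0) in knock-out marrow and between the graft groups, with all 14245 genes tested at the bottom; n is the number of genes tested. The early B-cell genes have 7 of 10 higher in knock-out marrow and 0 of 10 between the graft groups.

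After transplantation no early B-cell gene was called between the graft groups. Between knock-out graft cells and wild-type graft cells, limma called 0 of the 10 genes, where 7.39% of all genes were called, 3.95% higher and 3.45% lower. At an unadjusted p under 0.05, 0 were higher and Ebf1 and Vpreb3, 2 of 10, were lower. Among all 14245 genes these 2 ranked 2054 and 2169 by p, so many other genes passed this unadjusted threshold too. All 10 differences were below 0, from -0.10 for Rag1 to -0.52 for Igll1, with a median of -0.28 against -0.01 over all genes, and the groups overlapped for each gene, where 15.5% of all genes had groups that did not. Igll1 read 1.87, 1.39, 1.63 and 1.42 in knock-out graft cells against 1.59, 1.72 and 1.88 in wild-type graft cells. Replicate 1 of the knock-out graft cells was close to the highest wild-type graft array, and without it the Igll1 difference passed (-0.85, adjusted p = 0.016), where with all arrays it was -0.52 ± 0.27 (adjusted p = 0.31). Vpreb1 read 2.18, 1.72, 1.91 and 1.73 in knock-out graft cells against 1.82, 2.05 and 2.15 in wild-type graft cells. Dntt read 1.70, 1.22, 1.42 and 1.20 in knock-out graft cells against 1.20, 1.46 and 1.71 in wild-type graft cells. On these genes too, replicate 1 of the knock-out graft cells was high and replicates 2 and 4 were low. The receptor chains and Rag1 spread less widely: Rag1 ranged from 1.82 to 2.03 in knock-out graft cells and from 1.93 to 1.99 in wild-type graft cells, Cd79a from 1.82 to 2.14 and from 1.91 to 2.11, and Cd79b from 2.03 to 2.36 and from 2.14 to 2.34 in these groups. Replicate 2 of the knock-out graft cells was the lowest array of this comparison for all 3 of these genes. The T-cell and plasmacytoid dendritic cell markers were higher in this comparison, in 11 of 12 and 7 of 8 cases. The mean log2 signal of the T-cell markers ranged from 2.87 to 4.05 in knock-out graft cells against 1.62 to 1.94 in wild-type graft cells, and their part in these results was not tested. Of the 11 mature B-cell markers 6 were higher, among them Fcer2a, the low-affinity IgE receptor, by 1.39 ± 0.15 (adjusted p = 5.5e-06) and Cr2, complement receptor 2, by 0.76 ± 0.13. The other 5 did not pass, and 3 of the 11 differences were below 0. Of the 18 transcription factors of the B lineage 2 were higher and 0 lower. These were Ikzf3, by 0.58 ± 0.11, and Irf8, by 0.84 ± 0.12, both also higher in knock-out GPI-negative cells. All 13 cell cycle genes tested were lower.

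**Figure D4:**
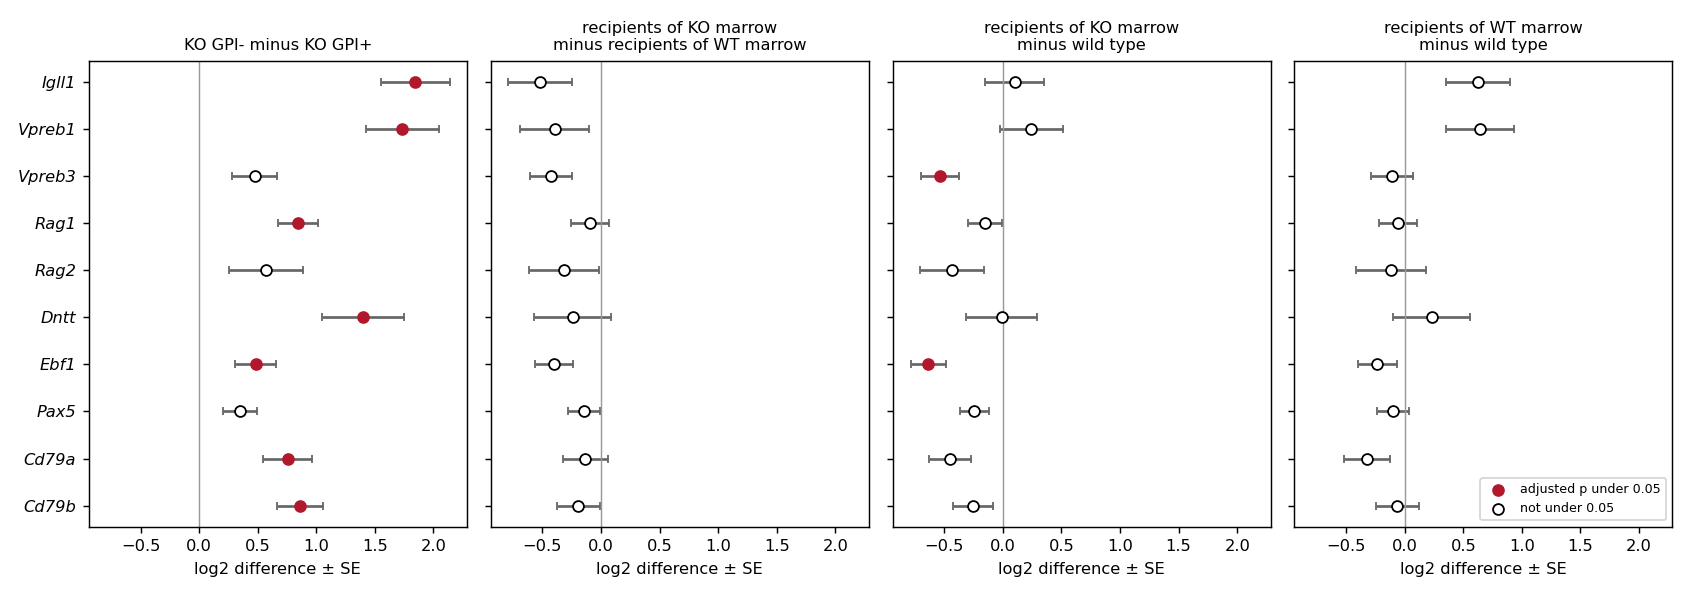
Log2 difference ± SE of the 10 genes in each of 4 comparisons from limma's fit over genes; filled points passed an adjusted p of 0.05. In knock-out marrow 7 genes passed, between knock-out graft cells and untransplanted wild-type cells 2 passed (Vpreb3 and Ebf1), and in the other comparisons none did; the last 3 comparisons share arrays.

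The next 2 comparisons share arrays with the last one. Against untransplanted wild-type cells, the same knock-out graft cells had 2 of 10 genes lower, Ebf1 and Vpreb3, and 0 higher, where 5.55% of all genes were lower and 6.84% higher, and the groups did not overlap for these 2 genes, as for 16.4% of all genes. Ebf1 read 1.24, 1.11, 1.27 and 1.26 in knock-out graft cells against 1.37, 1.501, 1.46 and 1.32 in untransplanted wild-type cells, a difference of -0.63 ± 0.15 (adjusted p = 0.0078). On Ebf1 probe set 1416301_a_at the difference was -0.48 ± 0.15 and did not pass (adjusted p = 0.055 over all probe sets, of which 3.97% were lower). Vpreb3 read 1.97, 1.71, 2.001 and 1.94 in knock-out graft cells against 2.02, 2.16, 2.05 and 2.03 in untransplanted wild-type cells, a difference of -0.53 ± 0.16 (adjusted p = 0.036). Vpreb3 no longer passed without knock-out graft replicate 2, where its difference was -0.32 (adjusted p = 0.14), or wild-type replicate 2, where it was -0.43 (0.13). It also missed the threshold, at -0.55 to -0.58, without knock-out graft replicate 4 or wild-type replicate 3 or 4 (adjusted p = 0.052 to 0.063). Cd79a passed without knock-out graft replicate 3 (-0.61, adjusted p = 0.030). Ebf1 no longer passed without knock-out graft replicate 1 or 4, wild-type replicate 2 or 3 or replicate 1 of knock-out GPI-positive cells (0.051 to 0.14); in each of these 1416301_a_at had become the brightest probe set. In the same comparison T-cell markers were higher in 11 of 12 and plasmacytoid dendritic cell markers in 6 of 8 cases, and erythroid markers were lower in 8 of 9 and cell cycle genes in 12 of 13; their part was not tested. Of the 13 signalling genes 2 were higher and 3 lower, with Prkcb, a kinase downstream of the B-cell receptor, falling by 1.06 ± 0.10, and Cd72 and Blk by 0.82 and 0.70.

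Between wild-type graft cells and untransplanted wild-type cells 0 of the 10 genes were called by limma, where 0.842% of all genes were called, and the groups overlapped for all 10, where 13.9% of all genes had groups that did not. At an unadjusted p under 0.05, 2 were higher, Igll1 and Vpreb1, and 0 lower. They ranked 1614 and 1757 by p among all 14245 genes, so many other genes passed this unadjusted threshold too. Igll1 read 1.59, 1.72 and 1.88 in wild-type graft cells against 1.45, 1.61, 1.63 and 1.496 in untransplanted wild-type cells (0.62 ± 0.27, adjusted p = 0.30), and Vpreb1 differed by 0.64 ± 0.29 (adjusted p = 0.32). The other genes differed by -0.32 to 0.23. Prkcb fell here too, by 0.97 ± 0.10 (adjusted p = 0.00011), and no other gene of the signalling list passed.

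The difference in knock-out marrow and the difference between the graft groups share no array, and their difference was tested. It passed for 8 of the 10 genes, all with a larger value in knock-out marrow, where 19% of all genes passed, 9.04% in that direction and 9.96% in the other; Rag2 and Pax5 did not pass (adjusted p = 0.17 and 0.086). The difference of differences was 2.37 ± 0.40 on the log2 scale for Igll1 (adjusted p = 0.00035) and 2.13 ± 0.425 for Vpreb1 (adjusted p = 0.0013). Without wild-type graft replicate 3, 5 genes passed, and with the knock-out GPI-positive arrays averaged 2 passed, Igll1 and Vpreb1. Without that replicate 2183 of 14121 genes passed over the whole table, 1018 with a larger value in knock-out marrow. Averaging also left fewer calls over all genes. The comparisons lie in different batches, and batch and kind of comparison cannot be told apart.

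Within groups, the spread of the 10 genes was near that of all genes in batch 1 and wider in batch 2. Their median SD was 0.196 log2 in knock-out GPI-negative cells and 0.110 in knock-out GPI-positive cells, and over all genes it was 0.199 and 0.0955 in these groups. In batch 2 their median SD was 0.447 in knock-out graft cells, 0.358 in wild-type graft cells and 0.264 in untransplanted wild-type cells, and over all genes it was 0.180, 0.166 and 0.153 in these groups. After each batch mean was subtracted, Pearson's r between members over the 17 arrays, which share group differences within a batch, ranged from 0.37 to 0.96 over 45 pairs with a median of 0.68. The median was 0.83 over the 6 arrays of batch 1, where the 2 fractions differ, and 0.50 over the 11 arrays of batch 2. Igll1 and Vpreb1 had the highest r (0.96), and Dntt followed both closely (0.92 and 0.93). Cd79a and Cd79b were alike (0.95), and r of Vpreb3 was 0.89 with Cd79a and 0.54 with Vpreb1. In batch 1 these last 2 values were equal at 0.98, and in batch 2 they were 0.89 and 0.36. The lowest r was that of Vpreb1 with Ebf1, 0.37 over all arrays and 0.14 in batch 2. In batch 2 the mean of Igll1, Vpreb1 and Dntt minus that of Cd79a and Cd79b was -1.60 ± 0.68 in knock-out graft cells (SD, n = 4), -1.38 ± 0.40 in wild-type graft cells (n = 3) and -2.07 ± 0.29 in untransplanted wild-type cells (n = 4). The value of knock-out graft replicate 1, -0.649, was the highest of batch 2.

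**Figure D5:**
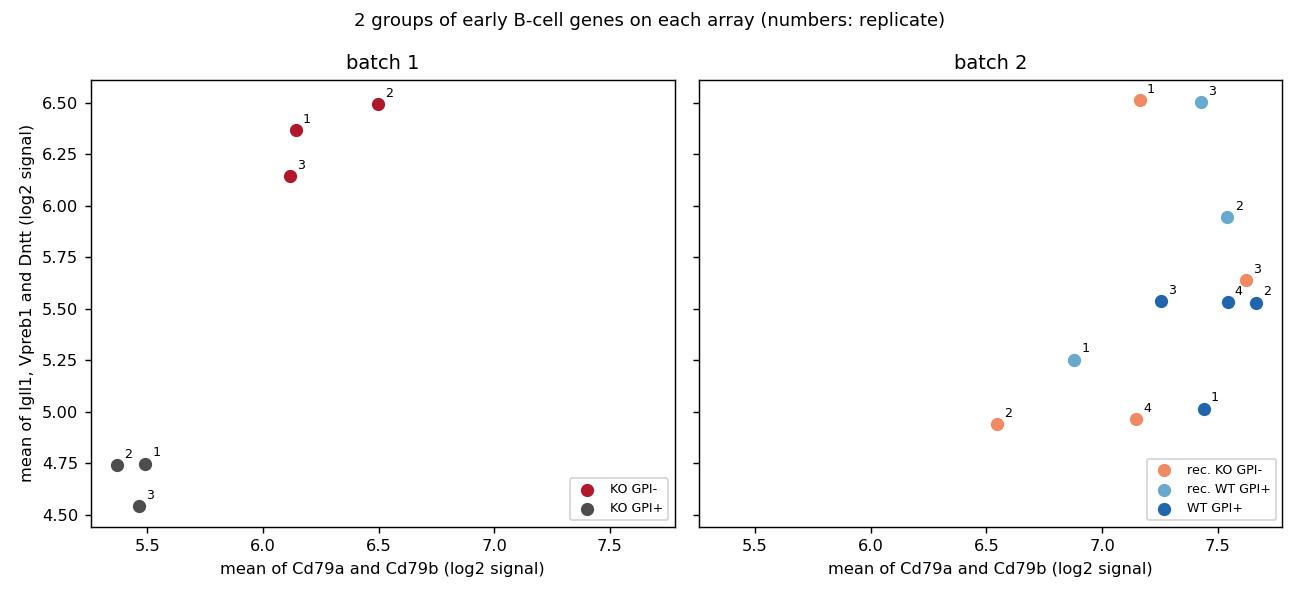
Mean log2 signal of Igll1, Vpreb1 and Dntt against that of Cd79a and Cd79b on each array, by batch. Numbers are replicates, and levels are compared only between arrays of the same batch. In batch 1 the fractions are apart on both axes, and in batch 2 knock-out graft replicate 1 is high on the first mean (6.51) at a middling second mean (7.16).

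The genes outside the list whose signal was most like the members' mean standardised value over the 17 arrays were Xrcc6 (r = 0.963), which encodes the Ku70 subunit that binds broken DNA ends, Cnn3 (0.962), Fcrla (0.951), a B-cell protein related to Fc receptors, and Blnk (0.944). Ccdc66, Ap1ar, Klhl6 and Pafah1b3 followed with r of 0.944 to 0.938. The members' mean carries their knock-out difference, so genes chosen for likeness to it share that difference by choice. In knock-out marrow the 8 genes differed by 0.51 for Klhl6 to 1.24 for Blnk on the log2 scale.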

How the data were processed

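Total RNA of sorted marrow cells was measured on 17 Affymetrix arrays. Labelling used 500 ng of RNA in a first and 1000 ng in a second experiment, per the labels' protocols, which do not tie these to the batches. The authors deposited log10-like values, the base being read from the hybridisation controls, which rose by 0.868 to 1.21 per unit of log10 concentration. Sorted values are identical within a batch, as after quantile normalization per batch; how background was corrected and probes summarised is not stated in any source used.

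Values were converted to log2 and centred on a common median, since batch medians were 0.515 and 0.387. Leaving out 64 controls, probe sets reaching their own array's 40th percentile on 3 or more arrays were kept (32426), and for each gene the brightest kept probe set with a single symbol was used (14245 genes). RefSeq sequences are of assembly GRCm38.p6. A limma fit (version 3.58.1, R 4.3.3) over 5 groups, with an intensity trend and 12 residual degrees of freedom, gave differences, SE and Benjamini-Hochberg adjusted p over all genes; a second took all kept probe sets. Only the fit over genes was tested on simulated data. The number of arrays limits the precision (median SE 0.133 to 0.211 log2). Members, lists and tests were chosen with earlier results of these data known. Named are all members, up to 4 called genes of smallest adjusted p per pathway list, up to 2 genes per marker list, and the 8 genes most like the members. Spi1, Runx1, Id2, Id3, Cd22, Plcg2, Blk, Hmgb2, Cd40 and Prdm1, and Fcrla as a mature B-cell marker, were named after their values were seen. Alternatives changed the normalization, filter, probe set rule, trend, weights, block and arrays entered.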

Additional observations from a re-analysis of the deposited data

Results flagged for a closer look

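The difference in knock-out marrow (GPI-negative minus GPI-positive) was larger than that between the graft groups (knock-out graft minus wild-type graft) for 8 of the 10 genes by limma's interaction test, by 2.37 for Igll1, 2.13 for Vpreb1, 1.64 for Dntt, 1.06 for Cd79b, 0.94 for Rag1, 0.90 for Vpreb3, 0.89 for Cd79a and 0.88 for Ebf1 on the log2 scale. Adjusted p ranged from 0.00035 for Igll1 to 0.032 for Cd79a. No single array stood apart from its group of 4 by Dixon's test in 34 groups of values of the kept probe sets, where chance marks about 1 in 20.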

How the results depend on the processing

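The count of early B-cell genes called in knock-out marrow, 7, was 6 to 8 under 9 of 10 alternatives and 3 with the knock-out GPI-positive arrays averaged. Leaving out 1 replicate gave 6 to 8 in knock-out marrow, 0 to 1 between the graft groups, 0 to 3 for knock-out graft against untransplanted wild-type cells, 0 for wild-type graft against untransplanted wild-type cells, and 5 to 9 for the difference of differences. Calls over all genes, in the same order, were 3305 to 4278, 677 to 1309, 1311 to 2080, 21 to 262 and 2100 to 3068. For knock-out graft against untransplanted wild-type cells, 1 gene instead of 2 passed with a separate fit per batch, without the intensity trend, with averaged GPI-positive arrays and with the replicate block, in each case Ebf1. For the difference of differences, 2 instead of 8 passed with averaged arrays, where fewer samples enter the fit. Arrays with the same replicate number showed little likeness in their deviations from group means (r from -0.18 to 0.098 over 13 pairs). The labels name no animals and groups are small, so this does not settle whether arrays are paired. With the replicate block 6 genes passed in knock-out marrow, 0 between the graft groups and 6 for the difference of differences. Ebf1 in knock-out marrow differed by 1.30 to 1.44 in the 12 settings where 1416301_a_at became its brightest probe set, and lost its call with no filter (adjusted p = 0.052), no trend (0.059) and the replicate block (0.056). Vpreb3 gained a call in knock-out marrow with cyclic loess (0.039), quantile normalization over all arrays (0.040), a fit per batch (0.0059) and without knock-out graft replicate 2 (0.012). No called difference changed sign in 1340 values; 17 uncalled ones did. Over all genes, averaging the GPI-positive arrays left 1652 calls in knock-out marrow against 4206, 978 against 2707 for the difference of differences and 45 against 120 for wild-type graft over untransplanted wild-type cells, which had 353 with array weights and 59 without the trend. The cause was not tested. Pax5 and the second Igll1 probe set are dim, which limits what their differences show.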
